A study of Homo sapiens with 6 samples.

Results

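HDAC corepressor complexes join a histone deacetylase to the DNA-binding protein that calls it to a gene, and the 9 genes described here encode the scaffold, bridging and chromatin-handling subunits of 4 such complexes. They are NCOR1 and TBL1XR1 of the NCoR complex, SIN3A and SIN3B of the SIN3 complex, RCOR1 and KDM1A of the CoREST complex, and MTA2, CHD4 and RBBP4 of the NuRD complex. The members were named by symbol from what is known of these complexes and of AML1-ETO, with earlier results of these data known but by a rule that uses no measured value, and each was found by its Ensembl identifier in GENCODE release 29. All 9 of 9 were found among the 32364 genes of the deposited table, and all 9 passed the filter on low values that 18726 genes passed. The libraries were made from Kasumi-1, a line of leukemic myeloblasts in which part of RUNX1 (also called AML1) is joined to RUNX1T1 (also called ETO) as the fusion AML1-ETO. Cells of the I13 group (3 libraries) were kept for 48 h with 0.5 µM I13, an HDAC inhibitor, and cells of the control group (3 libraries) were kept for 48 h without I13. The study's methods give the solvent, dimethyl sulfoxide, as its control. It is 1 cell line with no other genotype. The study describes its sequencing figures as representative of 3 independent experiments, but does not tie the libraries to them. The labels do not say that the 3 libraries of a group came from separate cultures. The p-values therefore measure the spread between libraries, which may be technical.

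Deacetylases remove acetyl groups from histone tails, and a deacetylase of class I acts in cells mostly as a subunit of a larger complex. In the NCoR complex HDAC3 is bound and activated by the scaffold NCOR1, while HDAC1 and HDAC2 are held by the SIN3, CoREST and NuRD complexes. AML1-ETO keeps the DNA-binding domain of RUNX1 and gains the ETO part, which binds corepressors of this kind, and repression of RUNX1 target genes through them is the textbook account of the fusion. The question put to the data was whether the mRNA of these subunits differed between cells kept with the HDAC inhibitor and control cells.

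A pair of sequence comparisons set how the values of close copies can be read. RCOR1 and RCOR2 are paralogs that can both bind KDM1A, and their values are set against each other in the account of the CoREST complex. In the best local alignment of their coding sequences (354 columns, GRCh38, GENCODE release 29), 74.3% of the bases were identical and the longest identical run was 15 bases. No window of 31 bases was shared by the 2 genes. The stretch of 120 bases shown here, bases 403 to 522 of the RCOR1 coding sequence and 223 to 342 of that of RCOR2, holds 27 differences, which are the capitals, and so reads of one gene can be told from those of the other.
RCOR1: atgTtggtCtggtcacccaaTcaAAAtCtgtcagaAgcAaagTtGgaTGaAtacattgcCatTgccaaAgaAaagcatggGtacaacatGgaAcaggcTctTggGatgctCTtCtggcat
RCOR2: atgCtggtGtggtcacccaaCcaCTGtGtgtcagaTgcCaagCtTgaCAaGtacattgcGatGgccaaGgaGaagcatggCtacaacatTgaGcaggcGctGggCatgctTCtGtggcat

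The opposite case was RBBP4 and its processed pseudogene RBBP4P1, an intronless copy on chromosome 5 (chr5:14797125-14798400). Their sequences were 97.2% identical over the 1275 coding bases of RBBP4, with a longest identical run of 173 bases. The stretch of 120 bases shown here, bases 846 to 965 of the coding sequence, has 0 differences between the 2 genes, so a read that lies within it cannot be placed from its sequence alone.
RBBP4 and RBBP4P1: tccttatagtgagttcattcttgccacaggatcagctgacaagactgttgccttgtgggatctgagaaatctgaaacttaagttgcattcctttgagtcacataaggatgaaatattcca

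The deposited values are FPKM, fragments scaled to the exon length of a gene and to the size of its library, and whole fragments recovered from them gave depths of 16566742 to 17221345 in the control libraries and 15281052 to 16682550 in the I13 libraries. Control replicate 3 and I13 replicate 2 stood apart together on the first principal component (43.3% of the variance of 4133 genes), and both lay below, or both above, the other 4 libraries in 27.3% of the 18726 genes. The labels do not say what that pair shares. MPO, KIT, CD34, CD33, RUNX1 and RUNX1T1, which mark Kasumi-1, were all present, and MPO lay between 10241 and 12450 FPKM. Of 8 markers of T, B, erythroid and platelet cells, 5 were in the table and lay at or below 0.376 FPKM in every library, with PPBP at 0 throughout. Of the 6 Kasumi-1 markers, 3 had a log2 fold change above 0 and 3 below, and CD33 alone passed the unadjusted limma p (0.0166, log2 fold change 0.20), while by limma voom MPO also did (0.0206, log2 fold change -0.12). Of the other markers 2 could be tested, and CD3D was lower in the I13 libraries (unadjusted limma p of 0.0205, log2 fold change -0.90) on 2 to 6 fragments a library, too few for voom. The part of these markers in the results was not tested. In a bulk library, fewer cells that express a gene and less RNA of it per cell cannot be told apart.

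None of the 9 subunits differed between I13 and control cells at an unadjusted p under 0.05 in the limma fit, which 5.14% of the 18726 genes tested reached, 4.53% of the 6270 protein-coding genes whose mean reached 5 FPKM, and 2.38% of all genes when a log2 fold change of at least 0.58 was asked for as well. Their log2 fold changes (I13 minus control) lay between -0.076 for TBL1XR1 and 0.031 for KDM1A, with a median of -0.026, beside a median of 0.0058 over all genes. The lowest unadjusted p was 0.238, for CHD4, and its adjusted p of 0.983 was also the lowest of the 9. No gene of the 18726 passed an adjusted p under 0.05 (0%), and the smallest adjusted p was 0.275. By voom on the recovered fragments, 6 of 13852 genes passed (0.0433%) and none of them was a member. The 95% interval of every member lay inside a change of 1.25-fold either way, which held for 34.1% of all genes tested and for 83.2% of the 6270 protein-coding genes whose mean reached 5 FPKM. The widest interval on the low side was that of TBL1XR1, at 0.821 of the control level, and the widest on the high side that of SIN3B, at 1.14 times the control level. The narrowest interval was that of CHD4, from 0.908 to 1.03 times the control level.

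**Figure D1:**
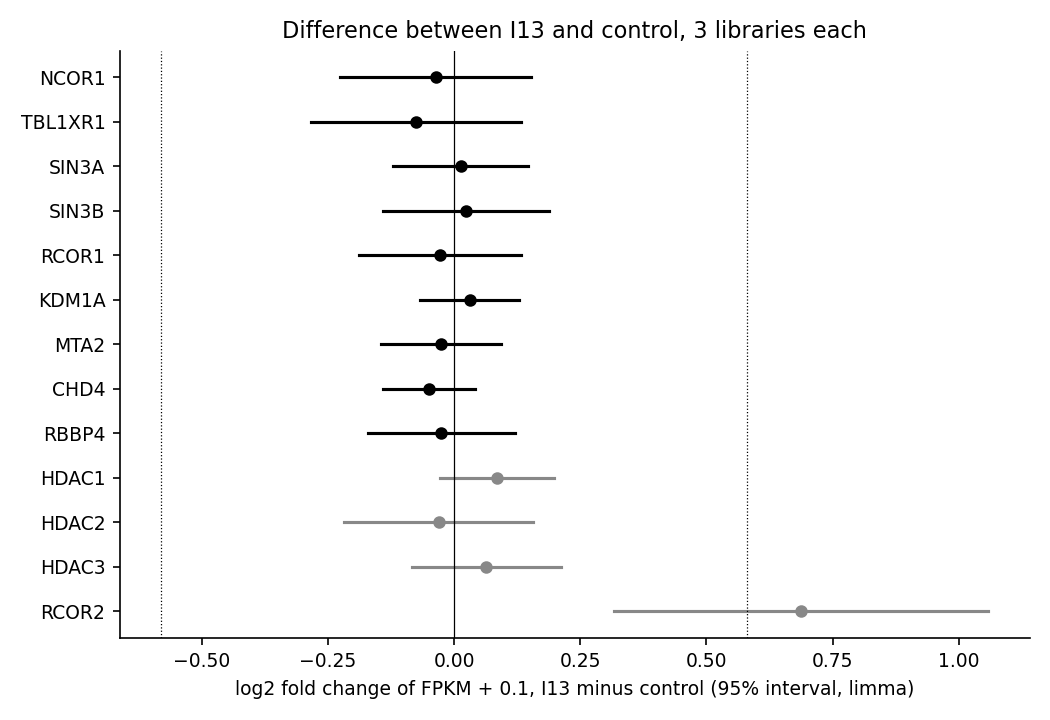
Log2 fold change (x axis, I13 minus control, of FPKM + 0.1) as points with 95% limma intervals as bars, for the 9 subunits (black) and for HDAC1, HDAC2, HDAC3 and RCOR2 (grey), with dotted lines at 0.58 on either side of 0. All 9 black intervals span 0, from the lowest estimate of -0.076 (TBL1XR1) to the highest of 0.031 (KDM1A), and the RCOR2 interval does not.

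FPKM is per exon length, so levels can be set between genes, but only as far as that length is the right one. Except for KDM1A and CHD4, the member lengths were those of all annotated exons merged, from 4236 bases (MTA2) to 15404 bases (NCOR1). The transcripts present may be shorter. NCOR1, for example, held 1974 to 2371 fragments a library and SIN3B 1271 to 1456. The effect of length on the order was not tested. The order from the highest mean over 6 libraries was CHD4, KDM1A, MTA2, RBBP4, TBL1XR1, RCOR1, SIN3A, SIN3B and NCOR1. The highest mean was 7.93 times the lowest. Each gene of this order lay above the next in 6 of 6 libraries, and none of the 8 neighbouring pairs had overlapping ranges. The closest neighbours by ratio of mean FPKM were SIN3A over SIN3B and SIN3B over NCOR1, at 1.11 each. The lowest SIN3B value, 9.10 FPKM, lay just above the highest NCOR1 value, 9.06 FPKM. By mean FPKM the members ran from the 75.3th percentile of all genes tested (NCOR1) to the 97.4th (CHD4), and from the 63.3th to the 96.3th percentile of the protein-coding genes tested.

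**Figure D2:**
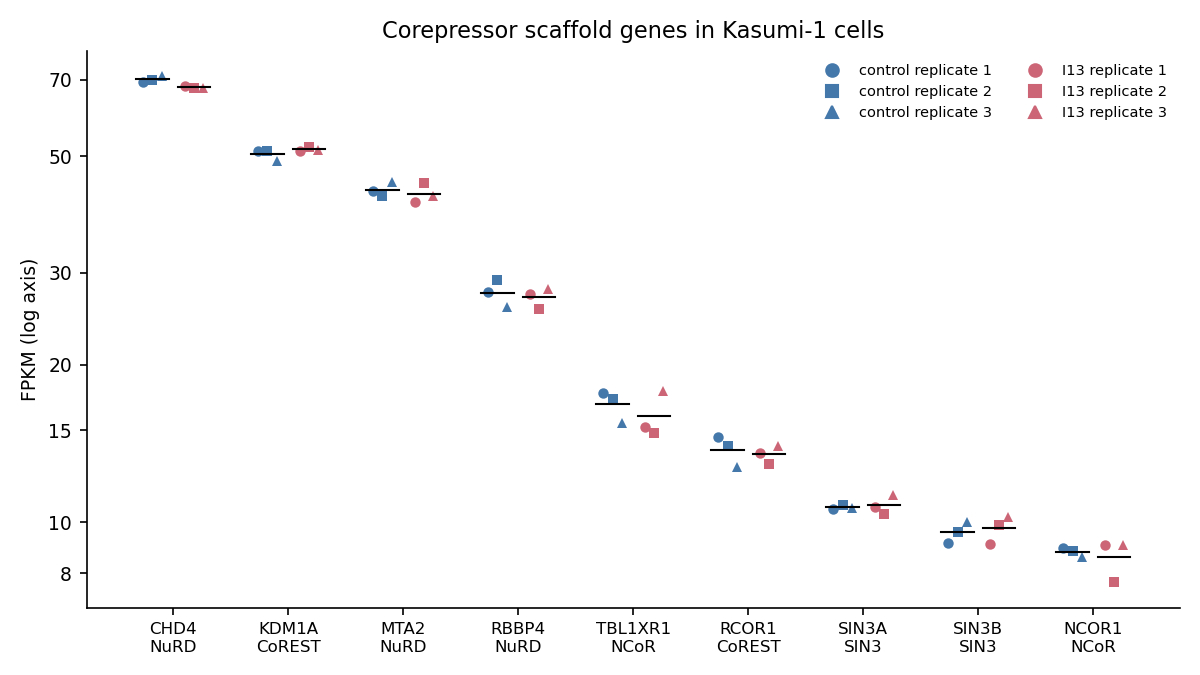
FPKM of the 9 subunits in each of the 3 control and 3 I13 libraries, with bars at the group means, on a log axis. The genes keep 1 order in all 6 libraries, from CHD4 (mean over 6 libraries 69.0 FPKM) down to NCOR1 (8.69 FPKM), while the groups of each gene lie close together.

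In the NCoR complex, the I13 and control values of both members overlapped, and neither member passed the unadjusted limma p. NCOR1 (ENSG00000141027, chr17:16029157-16218185, minus strand) is the large scaffold that binds and activates HDAC3. Its FPKM were 8.94, 8.83 and 8.61 in control replicates 1, 2 and 3 and 9.05, 7.68 and 9.06 in I13 replicates 1, 2 and 3. I13 replicate 2 was the lowest of the 6 and the other I13 libraries were the highest, so that the groups overlapped. The means were 8.79 ± 0.168 (SD, n = 3) and 8.60 ± 0.791 (SD, n = 3), a log2 fold change of -0.036 (SE 0.080, 95% interval -0.23 to 0.15). The sign of this small difference turned to 0.027 over the 4 libraries without control replicate 3 and I13 replicate 2. TBL1XR1 (ENSG00000177565, chr3:177019340-177228000, minus strand) encodes a WD-repeat protein that sits beside HDAC3 in the complex and takes part in the exchange of corepressors for coactivators. It read 17.7, 17.2 and 15.5 FPKM in the control libraries and 15.2, 14.8 and 17.9 FPKM in the I13 libraries. The highest and the lowest of the 6 values were both I13 libraries. This gave means of 16.8 ± 1.15 and 16.0 ± 1.65 FPKM (SD, n = 3 each) and a log2 fold change of -0.076 (SE 0.088, 95% interval -0.28 to 0.13), which was the largest of the members in size and also came with the largest coefficient of variation over the 6 libraries, 8.24%. The 3 genes whose profile over the 6 libraries was most like that of TBL1XR1, out of 4132 genes whose mean reached 10 FPKM, were TOB1, NUP43 and USP24, with a root mean square difference of 0.030, 0.033 and 0.033 on the centred log2 scale.

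Of the other NCoR subunits listed, 3 of 5 could be tested and 0 passed the unadjusted p, with a median log2 fold change of -0.059. HDAC3, the catalytic subunit, lay between 12.9 and 14.9 FPKM with a log2 fold change of 0.064 (95% interval -0.084 to 0.21). GPS2, another core subunit, was listed at 0 in 4 libraries and at 0.039 and 0.042 FPKM in the other 2. It shares 44.7% of its exon length on the same strand with AC026954.2, an annotated gene that was not analysed here, and the part of that overlap in its values was not tested.

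The SIN3 complex rests on SIN3A or SIN3B, which are alternative scaffolds that carry HDAC1 and HDAC2 through a shared core. SIN3A (ENSG00000169375, chr15:75369379-75455842, minus strand) had 10.6, 10.8 and 10.7 FPKM in the control libraries and 10.7, 10.4 and 11.3 FPKM in the I13 libraries. The control values sat inside the range of the I13 values. Its log2 fold change was 0.013 (SE 0.057, 95% interval -0.12 to 0.15), the smallest in size of the 9. SIN3B (ENSG00000127511, chr19:16829400-16880353, plus strand) had 9.15, 9.60 and 10.01 FPKM in the control libraries and 9.10, 9.91 and 10.3 FPKM in the I13 libraries. Here too the groups overlapped along almost their whole range, and the log2 fold change was 0.023 (SE 0.070, 95% interval -0.14 to 0.19). Of 16 further SIN3 subunits and shared deacetylase subunits, 16 were tested and 0 passed, 6 with a log2 fold change above 0 and 10 below it. HDAC1 read 55.8, 55.1 and 59.1 FPKM in the control libraries and 58.4, 60.1 and 61.9 FPKM in the I13 libraries, a log2 fold change of 0.085 (95% interval -0.028 to 0.20). HDAC2 lay between 12.2 and 14.2 FPKM, with a log2 fold change of -0.031 (95% interval -0.22 to 0.16).

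The CoREST complex pairs the scaffold RCOR1 with KDM1A, the lysine demethylase LSD1, which removes methyl groups from lysine 4 of histone H3 and works next to HDAC1 and HDAC2. RCOR1 (ENSG00000089902, chr14:102592661-102730576, plus strand) had 14.5, 14.01 and 12.7 FPKM in the control libraries and 13.5, 12.9 and 14.02 FPKM in the I13 libraries. Control replicate 3 was the lowest and control replicate 1 the highest of the 6 libraries. The log2 fold change was -0.028 (SE 0.068, 95% interval -0.19 to 0.13). KDM1A (ENSG00000004487, chr1:23019443-23083689, plus strand) had the lowest coefficient of variation of the members over the 6 libraries, 2.07%, just below the 2.10% of CHD4. By the highest over the lowest value CHD4 was steadier, at 1.05 against 1.06 for KDM1A. KDM1A read 51.26, 51.27 and 49.0 FPKM in the control libraries and 51.27, 52.2 and 51.4 FPKM in the I13 libraries. Every I13 value was above every control value, but the highest control value of 51.2735 FPKM and the lowest I13 value of 51.2736 FPKM are differ only in the last digit given. The log2 fold change was 0.031 (SE 0.042, 95% interval -0.067 to 0.13), and over the 4 libraries without the pair that stood apart it was 0.0026.

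Among the other CoREST subunits, 10 of 10 were tested and RCOR2 was the 1 gene of the 38 listed partners of all 4 complexes that passed the unadjusted p. RCOR2 (ENSG00000167771, chr11:63911221-63916844, minus strand) is a paralog of RCOR1 that is known from stem cells and the nervous system. It had 1.06, 0.894 and 0.816 FPKM in the control libraries and 1.49, 1.71 and 1.43 FPKM in the I13 libraries. All 3 I13 libraries lay above all 3 control libraries. On FPKM + 0.1, the level in I13 cells was 1.61 times that in control cells (95% interval 1.25 to 2.08). This was a log2 fold change of 0.69 (SE 0.16) with an unadjusted limma p of 0.00318. It failed the correction over all genes, with an adjusted limma p of 0.669. The exact permutation test over 3 against 3 libraries gave 0.1, the smallest p that this design allows. The values rest on 37 to 50 fragments in the control libraries and 60 to 78 fragments in the I13 libraries, against 1310 to 1553 fragments for RCOR1. Within the pair that stood apart the log2 difference was 0.98, and over the other 4 libraries it was 0.54. A share of 3.09% of the 31-base windows of RCOR2 is also found in AC123567.1, and the part of that copy in the values was not tested.

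Ratios here are of FPKM + 0.1, which lowers the ratio of a high gene to a low one. RCOR1 over RCOR2 was 12.6, 14.2 and 14.03 in the control libraries and 8.58, 7.19 and 9.21 in the I13 libraries. The means were 13.6 ± 0.869 and 8.33 ± 1.03 (SD, n = 3 each). The groups did not overlap, with a log2 difference of -0.72 and an exact permutation p of 0.1. RCOR1 mRNA thus stayed above RCOR2 mRNA in every library. This ratio was chosen after the values of RCOR2 were seen. RCOR3, the other paralog, lay between 6.40 and 7.60 FPKM with a log2 fold change of -0.051. RCOR1 was 1.83 to 2.00 times RCOR3 over the libraries.

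**Figure D3:**
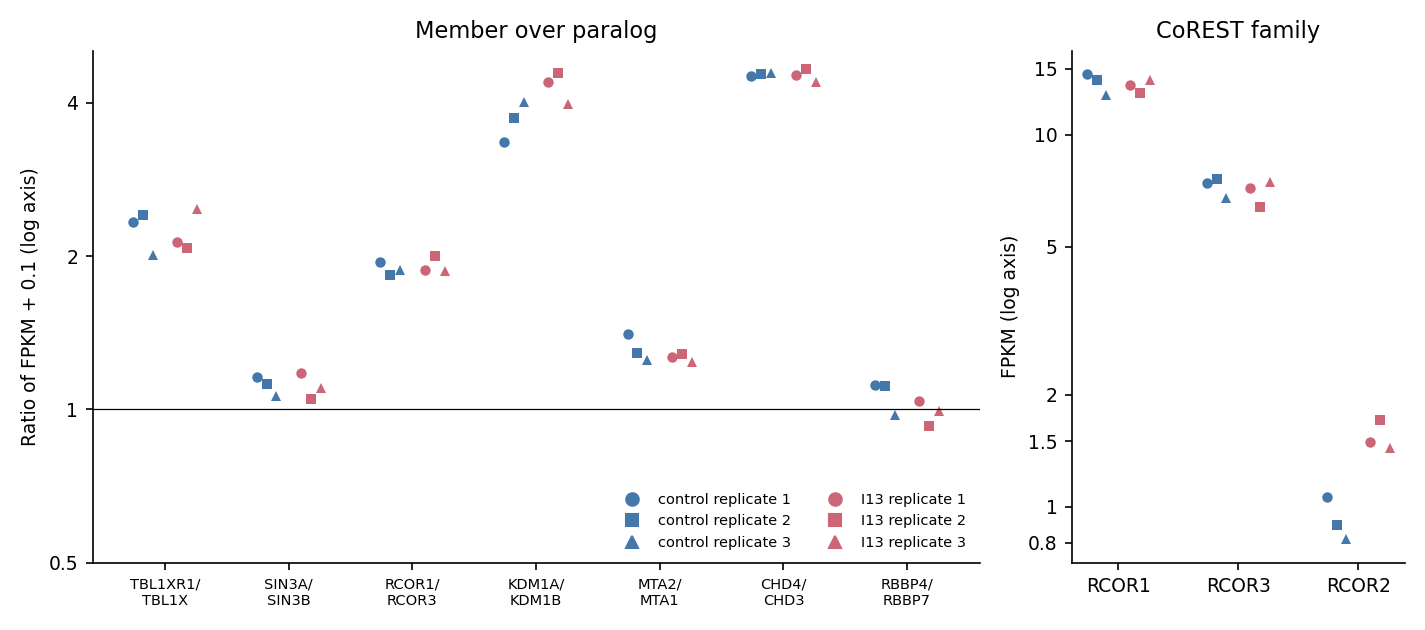
Left, ratio of each subunit to its paralog (FPKM + 0.1, log axis) in each of the 3 control and 3 I13 libraries, and right, FPKM (log axis) of RCOR1, RCOR3 and RCOR2 in the same libraries. The groups of all 7 ratios overlap, as do those of RCOR1 and RCOR3, and the 3 I13 points of RCOR2 (1.43 to 1.71 FPKM) lie above its 3 control points (0.816 to 1.06 FPKM).

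In the NuRD complex, CHD4 is the ATPase that moves nucleosomes, MTA2 the scaffold that holds the deacetylases, and RBBP4 the histone-binding subunit that the SIN3 complex also contains. CHD4 (ENSG00000111642, chr12:6570082-6614524, minus strand) had 69.3, 70.02 and 71.2 FPKM in the control libraries and 68.2, 67.6 and 67.6 FPKM in the I13 libraries. All 3 I13 values were below all 3 control values. With KDM1A in the other direction, 2 of 9 members had groups that did not overlap, beside 9.52% of all genes tested, 4.88% with the I13 libraries higher and 4.64% with them lower. The means of CHD4 were 70.2 ± 0.949 and 67.8 ± 0.331 FPKM (SD, n = 3 each), a ratio of 0.966, with a log2 fold change of -0.049 (SE 0.038, 95% interval -0.14 to 0.041). The limma p was 0.238 and the exact permutation p was 0.1, the smallest that 3 against 3 libraries allow. The log2 difference was -0.037 over the 4 libraries without the pair that stood apart and -0.074 within that pair. MTA2 (ENSG00000149480, chr11:62593214-62601840, minus strand) read 42.9, 42.1 and 44.6 FPKM in the control libraries and 40.9, 44.5 and 42.0 FPKM in the I13 libraries. Control replicate 3 and I13 replicate 2 were the highest 2 of the 6, and the log2 fold change between groups was -0.026 (SE 0.051, 95% interval -0.15 to 0.094). RBBP4 (ENSG00000162521, chr1:32651142-32686211, plus strand) had 27.5, 29.03 and 25.7 FPKM in the control libraries and 27.3, 25.6 and 27.9 FPKM in the I13 libraries. The lowest 2 values were those same 2 libraries, and the log2 fold change was -0.025 (SE 0.062, 95% interval -0.17 to 0.12).

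For RBBP4, 29.6% of the 31-base windows are found, on either strand, in another annotated gene. The largest shares were 16.6% in SYNC, 5.29% in RBBP4P1 and 3.50% in RBBP4P2. RBBP4P1 was listed with 48 to 64 fragments a library, where RBBP4 held 4035 to 4718. The other RBBP4 pseudogenes in the table held at most 6 fragments in any library. How reads that match several places were assigned is not given in the sources used here, and their part in the RBBP4 values was not tested. RBBP4 also overlaps SYNC on the opposite strand over 18.01% of its exon length, and SYNC lay at a mean of 0.0140 FPKM. CHD4 shares 46.9% of its exon length on the same strand with AC006064.6, which was not analysed here. On either strand, 55.7% of its 31-base windows are found in another annotated gene, 44.2% in AC006064.6 and 9.04% in the antisense gene AC006064.2. The level of CHD4 may therefore miss or include reads of AC006064.6, and the part of this in its values was not tested. Of the other members, NCOR1 shared 7.67% of its windows, SIN3A 4.31%, TBL1XR1 3.71%, SIN3B 2.96%, MTA2 0.115%, RCOR1 0.0968% and KDM1A 0%. Of the remaining NuRD subunits, 11 of 12 could be tested and 0 passed the unadjusted p, with a median log2 fold change of 0.021. The paralog MTA1 lay between 30.5 and 35.7 FPKM, CHD3 between 14.4 and 15.5 FPKM and RBBP7 between 24.7 and 28.1 FPKM.

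Balance between paralogs can change with a treatment even where a scaffold holds its level. So 7 ratios of a member to a paralog, each of FPKM + 0.1, were compared by the exact permutation test. None of the 7 had groups that did not overlap, and the lowest adjusted p was 0.933. CHD4 was 4.54 ± 0.0338 times CHD3 in control cells and 4.53 ± 0.135 times in I13 cells (SD, n = 3 each). The largest difference was for KDM1A over KDM1B, the second lysine demethylase of its family, with ratios of 3.69 ± 0.335 and 4.31 ± 0.308 (SD, n = 3 each, exact permutation p = 0.2). KDM1B itself read 15.3, 13.7 and 12.2 FPKM in the control libraries and 11.6, 11.3 and 12.9 FPKM in the I13 libraries. Its groups overlapped through control replicate 3 and I13 replicate 3. Its log2 fold change was -0.19, with a 95% interval of -0.42 to 0.032 and an unadjusted limma p of 0.0821. By limma voom on the fragments its unadjusted p was 0.0377 and its adjusted p 0.858. In limma its unadjusted p was 0.0325 with a term for the pair of libraries that stood apart, and 0.0215 without control replicate 3, where its log2 fold change was -0.28. The adjusted p was 0.623 and 0.703 in these fits. RBBP4 over RBBP7 read 1.07 ± 0.0798 in control cells and 0.986 ± 0.0543 in I13 cells (SD, n = 3 each, exact permutation p = 0.3).

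Taking the listed partners of all 4 complexes, 38 of 38 were in the table and 35 could be tested. TBL1Y, GPS2 and CHD5 fell below the minimum level. At the unadjusted p, 1 was higher in I13 cells (RCOR2) and 0 were lower, which is 2.86% of the partners tested, beside 5.14% of all genes in either direction and 2.55% of all genes in the higher direction. The median log2 fold change was -0.031, with 14 genes above 0 and 21 below. The 95% interval lay inside a change of 1.25-fold for 26 of 35 partners (74.3%). This held for 34.1% of all genes tested and 83.2% of the 6270 protein-coding genes whose mean reached 5 FPKM. Inside 1.5-fold lay 33 of 35 (94.3%), beside 54.3% and 99.3% of those genes. The other 2 partners were RCOR2 and CORO2A, a low NCoR subunit at 0.103 to 0.450 FPKM. Recruiters, the DNA-binding proteins that call the complexes to genes, were also listed, together with CBFB and RUNX1T1. Of these 10 genes, 9 were tested and 0 passed. RUNX1, whose DNA-binding domain is in the fusion, lay between 32.0 and 36.1 FPKM with a log2 fold change of 0.017 (95% interval -0.12 to 0.15). RUNX1T1, which supplies the corepressor-binding part, lay between 12.5 and 14.4 FPKM with a log2 fold change of -0.029 (95% interval -0.19 to 0.13). Gene totals of RUNX1 and RUNX1T1 do not tell fusion transcripts from transcripts of the intact genes.

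The pair of libraries that stood apart also differed in some members. In control replicate 3 and I13 replicate 2 together, NCOR1, RCOR1 and RBBP4 were below all the other 4 libraries and MTA2 was above them, and in the other 5 members the 2 libraries were neither both below nor both above. For KDM1A and CHD4 they lay on opposite sides of the other 4. Among the 6270 protein-coding genes whose mean reached 5 FPKM, 47.1% had both libraries below or both above, so 4 of 9 members is near the background. The mean of NCOR1 was 8.15 FPKM in the pair and 8.97 FPKM in the other 4 libraries. RCOR1 and RBBP4 differed in the same direction, at 0.914 and 0.919 times the mean of the other 4. The mean of TBL1XR1 in the pair differed most, at 0.893 times, although I13 replicate 1 lay between the 2 libraries of the pair. As the pair holds 1 library of each group, the fit of I13 against control is balanced over it.

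**Figure D4:**
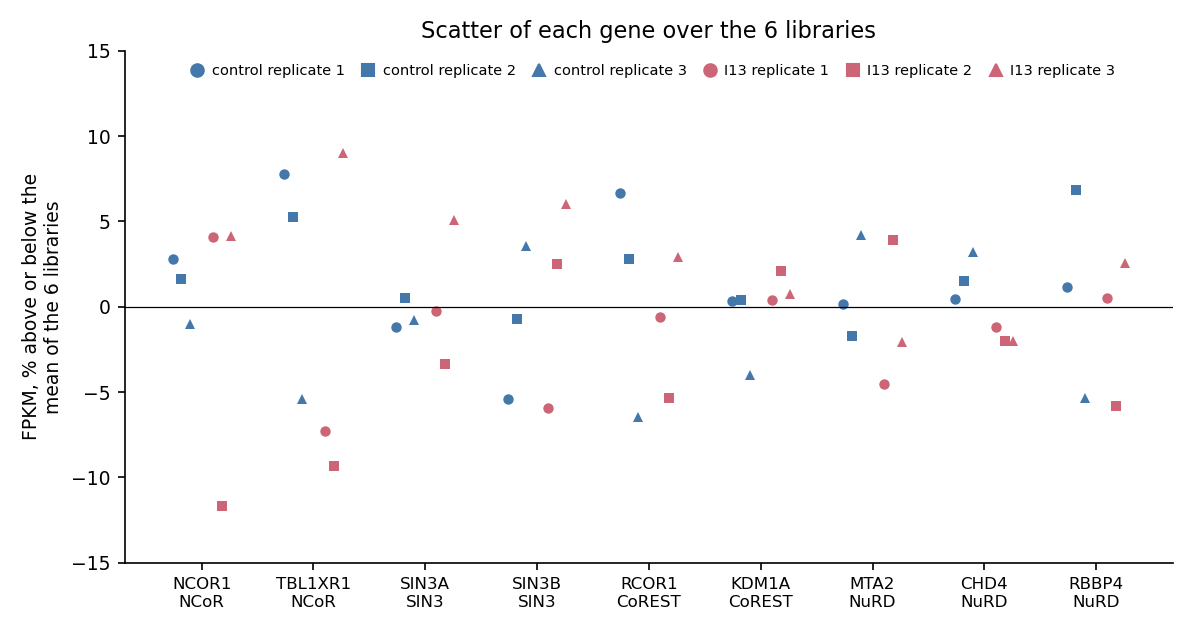
FPKM of each subunit in each of the 3 control and 3 I13 libraries, as percent above or below its mean over the 6 libraries. Control replicate 3 (blue triangles) and I13 replicate 2 (red squares) lie low together in NCOR1, RCOR1 and RBBP4 and high together in MTA2. By coefficient of variation the points spread most in TBL1XR1 (8.24%) and least in KDM1A (2.07%) and CHD4 (2.10%).

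Promoter sequence was a further feature that the choice of members had not used. In RefSeq (GRCh38.p14), 14 promoters of 300 bases, from 250 bases before to 50 after the start, were listed for the 9 members. They held a median of 31 CpG dinucleotides (range 0 to 44), beside a median of 25 over 14324 promoters of genes tested and 14 over all 35116 promoters. The GC box, GGGCGG on either strand, was in 11 of 14, beside 65.5% of the promoters of genes tested. The CCAAT box, on either strand, was in 7 of 14, beside 34.6%. The letters TATAAA were in 3 of 14, beside 6.28%, and the E-box CACGTG was in 1 of 14, beside 9.56%, each on either strand. The RUNX core letters TGTGGT, on either strand, were in 2 of 14, beside 10.3%. They were in a promoter of NCOR1 (chr17:16194590-16194889) and in the only listed promoter of SIN3B (chr19:16863024-16863323). Both promoters lie inside the gene as annotated in GENCODE, and no promoter at the GENCODE start of SIN3B was listed. These letters are matches only, several promoters belong to the same gene, and no binding was measured here.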

How the data were processed

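Libraries were made from total RNA with a stranded mRNA kit. The authors deposited FPKM values, normalized per exon length and mapped fragments, in 1 table. The submitters' processing notes name Trimmomatic, HISAT2, Cufflinks, HTSeq and hg38, with no role or version. Neither the annotation nor the strand setting is given in the sources used here, so an antisense overlap could not be resolved.

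Values were used as deposited. Fragments were recovered with exon lengths of GENCODE release 29: 25773 of 27002 genes (95.4%) came out whole in 6 libraries within 0.01, and 1322 more from the common step of their values. KDM1A and CHD4 needed other lengths than GENCODE's (5435 and 11211 bases). Groups were compared by limma 3.58.1 (R 4.3.3), two-sided and with a variance trend, on log2(FPKM + 0.1) of the 18726 genes whose mean FPKM reached 0.1, and p-values were adjusted by Benjamini-Hochberg over them. Fold changes are on that scale and understate those of low genes. Ratios of FPKM + 0.1 were compared by two-sided exact permutation tests in scipy 1.17.1 (Python 3.11.15), where the smallest p is 0.1, adjusted over 7 pairs. A planned ratio and the partner gene in it are not reported here. The code was tested on simulated data.

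Other settings tried were a pseudocount of 0.01 or 1, a minimum mean FPKM of 0 or 1, scaling by the median or by quantiles, omission of 1 library at a time, a replicate block, other variance models, limma voom on genes averaging 10 fragments or more, and a term for, or the removal of, the pair of libraries that stood apart. The ratio of RCOR1 to RCOR2 was added after its values were seen. Members, lists and tests were chosen with earlier results of these data known. Genes named are the 9 members, their paralogs, partners or recruiters with an unadjusted p under 0.05, RUNX1, RUNX1T1, HDAC1 to HDAC3, the 3 genes most like the member with the largest change, and overlapping genes or pseudogenes. Cell markers were listed by cell type. GPS2, CORO2A, TBL1Y, CHD5 and ZMYM3 were named after their values were seen.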

Additional observations from a re-analysis of the deposited data

How the results depend on the processing

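No member reached an unadjusted p under 0.05 under any of 18 alternatives, and the smallest was 0.0799 (TBL1XR1 without I13 replicate 3, log2 fold change -0.16). RCOR2 stayed under 0.05 in all 18, with p up to 0.0382 over the 4 libraries without the pair that stood apart, where its log2 fold change was 0.54. Its lowest adjusted p was 0.409 (voom) and its log2 fold change was 0.40 with a pseudocount of 1. Small differences changed sign. Over those 4 libraries NCOR1 was at 0.0265 and RCOR1 over RCOR3 at -0.0122. Leaving out 1 library gave ranges of -0.0759 to 0.0416 for NCOR1 (above 0 without I13 replicate 2), -0.0195 to 0.0406 for SIN3A (below 0 without I13 replicate 3), -0.0131 to 0.0723 for SIN3B (below 0 without I13 replicate 3 or control replicate 1), -0.0814 to 0.0127 for RCOR1 (above 0 without I13 replicate 2 or control replicate 1), -0.0603 to 0.0006 for MTA2 (above 0 without I13 replicate 1) and -0.0698 to 0.017 for RBBP4 (above 0 without I13 replicate 2 or control replicate 2). For the log2 ratios these ranges were -0.0963 to 0.0349 for TBL1XR1 over TBL1X, -0.0544 to 0.0295 for SIN3A over SIN3B, -0.008 to 0.0472 for RCOR1 over RCOR3 and -0.0264 to 0.0167 for CHD4 over CHD3. The cause was not tested.

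Over all genes, 9 passed the adjusted p without a variance trend and 6 by voom, beside 0. At the unadjusted p with a log2 fold change of 0.58, 445 passed, beside 119 with a minimum mean FPKM of 1, 134 with a pseudocount of 1 and 215 by voom. The partners past the unadjusted p were 2 with a term for the pair (RCOR2 and ZMYM3) and 1 to 2 with 1 library left out: ZMYM3 was added without I13 replicate 2 and HDAC1 without control replicate 3. KDM1B, a paralog outside the partner lists, also passed with that term, by voom and without control replicate 3.

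The deviations of same-numbered libraries from their group means had correlations of 0.32, -0.38 and -0.30 over 4133 genes, and the labels give no shared source, so the numbers were not taken to pair the libraries. With the replicate number as a block, 0 members and 1 partner (RCOR2) passed the unadjusted limma p, at 0.00961 for RCOR2, and 506 genes passed the unadjusted p with the fold.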
